A study of Mus musculus with 10 samples.

Results

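Matrix metalloproteinases (MMPs), the ADAMTS proteases and the tissue inhibitors of metalloproteinases (TIMPs) were followed in mouse nephron progenitors, freshly sorted and in culture. The members were all genes with a non-control probe on the array whose annotated name was Mmp, Timp or Adamts followed by the gene's number. This gave 46 genes, namely 23 Mmp, 4 Timp and 19 Adamts genes on 66 probes, out of 34607 gene names on 55681 probes. Expression was measured on 10 single-colour arrays in 5 groups of 2. All groups carried a Six2-GFP transgene, which marks cells expressing Six2, the transcription factor that keeps nephron progenitors self-renewing, on a C57BL6J/ICR background. The groups were GFP-positive cells from P0 neonates (P0 progenitors), GFP-negative cells from P0 neonates (P0 non-progenitors), GFP-positive cells of E11.5 embryos after 8 or after 19 days in conditioned medium (8-day and 19-day culture), and GFP-positive cells freshly sorted at E11.5 (E11.5 progenitors). P0 non-progenitors were every cell without GFP and so a mixture of types. Neither a second sort of the cultured cells nor separate litters or cultures for the 2 arrays of a group are mentioned in the labels, so p-values measure only the spread between these samples, which may be technical.

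MMPs are zinc-dependent endopeptidases made as inactive proenzymes. Most are secreted, some are anchored in the membrane, and between them they cleave collagens, gelatin, elastin and other matrix proteins. ADAMTS proteases are secreted relatives with thrombospondin repeats that cut hyalectan proteoglycans such as versican, the propeptides of procollagens, or von Willebrand factor. TIMPs bind the active site of MMPs, and TIMP3 also inhibits several ADAMTS and ADAM enzymes. In the embryonic kidney, MMP2, MMP9, MMP14 and TIMP2 are known from work on branching of the ureteric bud, which grows into the mesenchyme that holds the progenitors.

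Levels are given as log2 intensity relative to the 75th percentile of the same array, so 0 is that percentile. They compare samples for 1 probe, and levels of different genes cannot be set against each other. Between 60.4% and 69.8% of spots were well above background per array, no spot was saturated, and the 75th percentile lay between 220.4 and 340.6 intensity units. Of 46 members, 40 were tested, those with some group in which each array had a probe well above background, and 23 of these were above background on all 10 arrays (8 Mmp, 4 Timp and 11 Adamts). The other 6 members were not tested. Mmp20 and Adamts20 were above background on 0 arrays, Mmp7, Mmp21 and Mmp25 on 1 array each, and Mmp1a on 2 arrays of different groups. Six2 itself read 4.27 and 4.11 in P0 progenitors, against -2.26 and -4.54 in P0 non-progenitors. Six2 read 4.70 and 4.82 at E11.5, 5.21 and 4.61 after 8 days, and 1.06 and 2.32 after 19 days of culture.

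**Figure D1:**
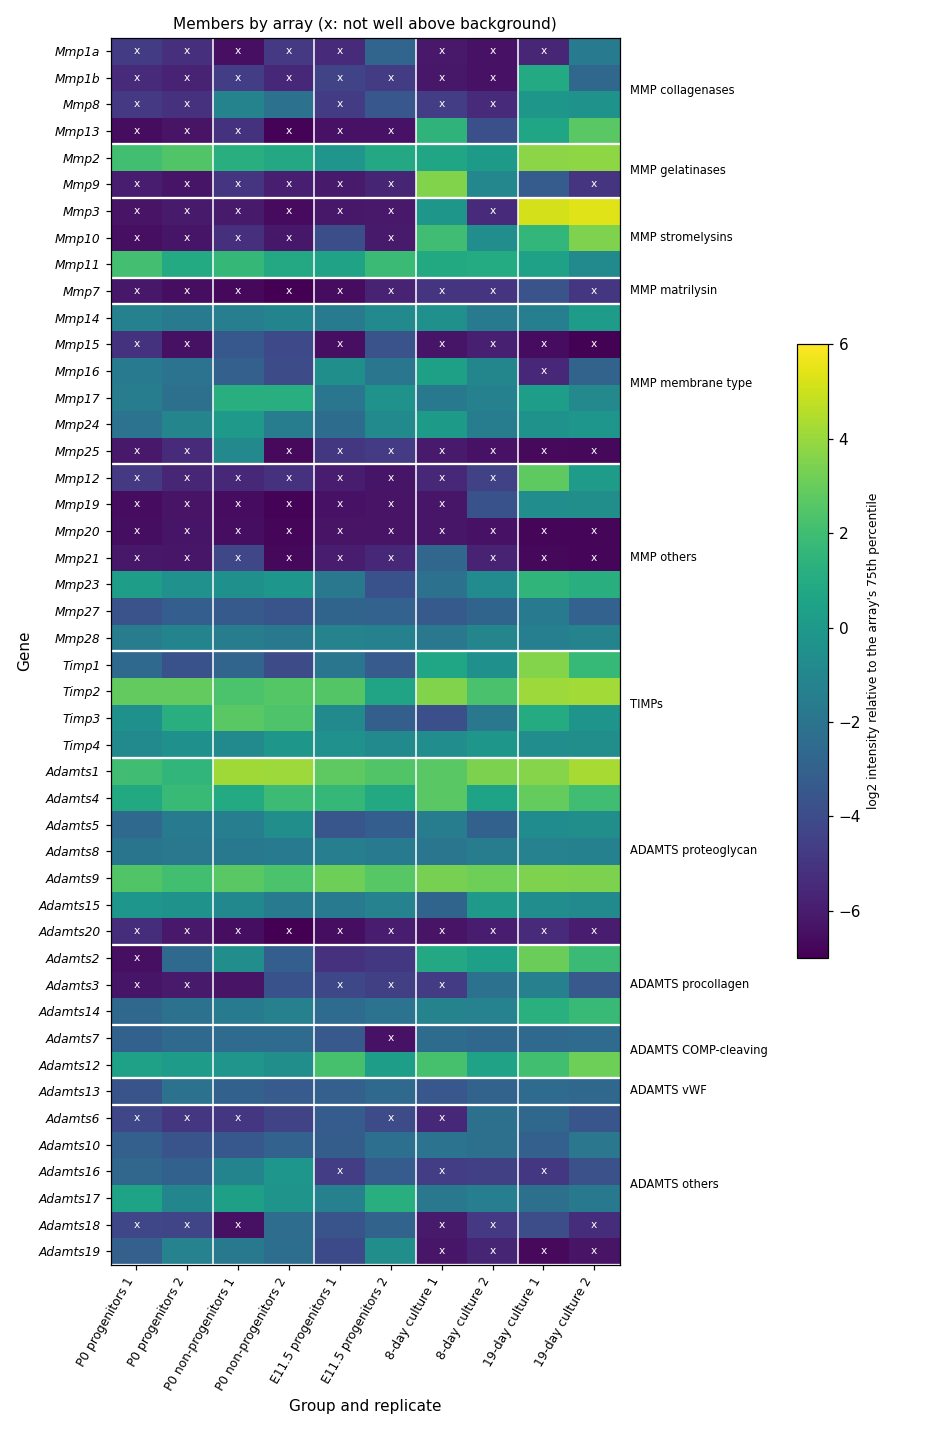
Heat map of the 46 members (rows, by role) on the 10 arrays (columns, 2 per group), coloured by log2 intensity relative to the array's 75th percentile. A cross marks arrays on which no probe of the gene was well above background. Mmp3, Mmp12, Mmp13, Mmp1b and Mmp19 are crossed out on all 6 fresh arrays and free of crosses on both 19-day arrays.

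Changes passed the test at an adjusted p under 0.05 (limma across 26312 genes, Benjamini-Hochberg adjustment, all 10 arrays in the fit). After 19 days of culture, 14 of 40 tested members were higher and 1 was lower than in E11.5 progenitors. That is 37.5% of the members tested, beside 16.8% of all genes tested in this comparison (7.21% higher, 9.55% lower). The median change of the tested members was 1.35 on the log2 scale, beside 0.006 over all genes. After 8 days, 2 members were higher and 0 lower than at E11.5 (8 higher and 1 lower at an unadjusted p under 0.05). These are 5% of the members, beside 4.78% of all genes (2.74% higher, 2.04% lower). From 8 to 19 days of culture, 7 members were higher and 1 lower, 20% of those tested, beside 8.04% of all genes (2.66% higher, 5.38% lower). Of the 40, 8 were tested only because a culture group showed them (Adamts6, Mmp1b, Mmp3, Mmp9, Mmp10, Mmp12, Mmp13 and Mmp19), so their low level elsewhere was part of how they entered, and the counts above contain them. Among the 23 members above background on every array, 7 were higher and 0 lower in 19-day culture than at E11.5 (30.4%, beside 19.9% of 19352 such genes). Both culture groups, and P0 progenitors further on, were set against the same 2 E11.5 arrays.

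The arrays lay on 2 slides that were scanned separately. The first slide held all fresh arrays and 8-day replicate 1, the second held 8-day replicate 2 and both 19-day arrays. No slide holds 19-day and E11.5 arrays together, so a slide term can be had only through the pair of 8-day arrays. The block therefore carries the difference between those arrays into the change from E11.5. A larger or passing change under it is no added support. With slide as a block, 9 members were higher and 0 lower in 19-day culture than at E11.5, among them 8 of the 15 found without it, beside 5.64% of all genes. Between 19 and 8 days, slide as a block left 6 of the 8 calls and added Mmp13, while on slide 2 alone, with 2 arrays against 1, 0 of 40 members and 0 of all genes passed (16 members higher and 1 lower at an unadjusted p under 0.05). In fits to the 4 arrays of the compared groups alone, 0 members passed for 8-day culture against E11.5 (5 higher and 3 lower unadjusted) and 0 for 19 against 8 days (13 higher and 2 lower unadjusted). Over the 40 members, the 8-day arrays differed from each other by a root mean square of 1.91, against 0.98 to 1.38 between the arrays of the other groups, and 10 members differed by over 2 log2 units. Over all genes tested this difference was 1.08 at 8 days, against 0.836 to 1.22 in the other groups, with E11.5 the widest.

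Large changes from E11.5 in culture were found for several Mmp genes of 1 cluster on chromosome 9. RefSeq (GRCm38.p6) places 10 Mmp genes between 7272514 and 7699585, a stretch of 427.1 kb, in the order Mmp13, Mmp12, Mmp1b, Mmp3, Mmp1a, Mmp10, Mmp8, Mmp27, Mmp20 and Mmp7. Of these, 7 were tested, and 5 of the 7 were higher in 19-day culture than at E11.5 (Mmp3, Mmp8, Mmp10, Mmp12 and Mmp13). Mmp1b, Mmp3 and Mmp12 passed the filter on low values only through the 19-day arrays, and Mmp10 and Mmp13 only through the culture arrays, so how they entered fixed this count in part and nothing is read from it.

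**Figure D2:**
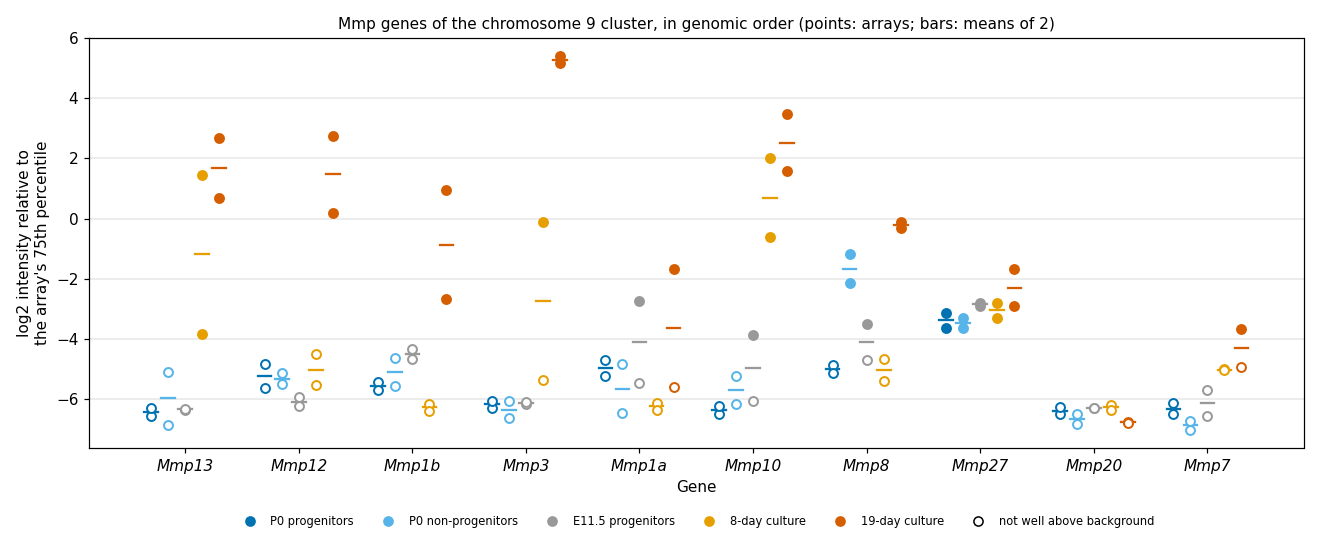
Levels of the 10 Mmp genes of the chromosome 9 cluster in genomic order (x axis) on each array (y axis, log2 intensity relative to the array's 75th percentile, not comparable between genes). Points are arrays, bars are means of 2 arrays, and open points were not well above background. Mmp3 reads 5.16 and 5.39 in 19-day culture and between -6.63 and -6.07 in every fresh sample.

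The upstream sequences of Mmp3, Mmp13, Mmp12 and Mmp10 are shown because these genes of the cluster had the largest fitted changes in 19-day culture. Their order is not firm, since Adamts2 (7.475) was close to Mmp10 (7.495) and dim probes at E11.5 set the fitted values. They are the 250 bases before each RefSeq start, on the plus strand of GRCm38.p6, chr9:7445572-7445821 for Mmp3, chr9:7272264-7272513 for Mmp13, chr9:7344147-7344396 and chr9:7347124-7347373 for the 2 starts of Mmp12, and chr9:7502092-7502341 for Mmp10. Capitals mark TGACTCA on either strand (read as TGAGTCA on the other), the recognition element of AP-1 (FOS and JUN) factors, and TATAAA on either strand, the core of the TATA box. The motifs did not overlap in these sequences.
Mmp3: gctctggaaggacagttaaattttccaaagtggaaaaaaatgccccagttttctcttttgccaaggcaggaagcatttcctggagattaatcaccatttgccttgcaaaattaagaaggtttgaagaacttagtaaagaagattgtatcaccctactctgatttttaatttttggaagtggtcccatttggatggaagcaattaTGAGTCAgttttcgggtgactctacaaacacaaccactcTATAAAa
Mmp13: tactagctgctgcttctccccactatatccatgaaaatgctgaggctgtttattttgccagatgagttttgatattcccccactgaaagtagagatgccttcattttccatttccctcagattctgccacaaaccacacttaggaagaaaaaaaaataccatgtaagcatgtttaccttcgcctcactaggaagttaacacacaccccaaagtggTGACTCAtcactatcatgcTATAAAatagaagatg
Mmp12 first start: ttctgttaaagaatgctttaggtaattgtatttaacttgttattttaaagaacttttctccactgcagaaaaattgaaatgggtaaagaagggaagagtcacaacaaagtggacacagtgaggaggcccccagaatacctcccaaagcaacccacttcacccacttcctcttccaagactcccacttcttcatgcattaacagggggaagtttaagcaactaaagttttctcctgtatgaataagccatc
Mmp12 second start: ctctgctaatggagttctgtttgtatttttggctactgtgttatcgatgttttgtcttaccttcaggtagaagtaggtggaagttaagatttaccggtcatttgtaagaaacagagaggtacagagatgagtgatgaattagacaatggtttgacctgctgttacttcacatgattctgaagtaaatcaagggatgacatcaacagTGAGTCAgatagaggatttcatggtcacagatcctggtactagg
Mmp10: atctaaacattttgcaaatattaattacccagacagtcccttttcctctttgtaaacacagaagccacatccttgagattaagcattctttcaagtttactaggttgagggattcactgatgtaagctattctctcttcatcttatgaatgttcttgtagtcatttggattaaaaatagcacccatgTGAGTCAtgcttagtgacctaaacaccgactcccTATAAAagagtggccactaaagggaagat

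TGACTCA stood 46 bases before the start of Mmp3, 35 before Mmp13, 63 before Mmp10 and 44 before the second start of Mmp12. Its letters are not in the window of the first Mmp12 start. TATAAA was found in the windows of Mmp3, Mmp13 and Mmp10. Of all 27025 genes of the table, 5.16% had a promoter that held TGACTCA in the same window and 14.3% one that held TATAAA. Promoters were matched for 32 members, of which 9 (28.1%) held TATAAA. The AP-1 element was found for 7 of the 32 (21.9%), which were Mmp1a, Mmp1b, Mmp3, Mmp7, Mmp10, Mmp12 and Mmp13, all of this cluster. A match is a description of the letters only.

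Mmp3 (stromelysin 1), which degrades proteoglycans, fibronectin and basement membrane proteins and activates other pro-MMPs, read -6.17 and -6.11 in E11.5 progenitors, -0.11 and -5.38 in 8-day culture, and 5.16 and 5.39 in 19-day culture. Both 19-day arrays were far above all others, while the 8-day arrays split, with only replicate 1 well above background. The change at 19 days was 11.41 ± 1.41 (log2, SE), at least 855.3-fold higher than at E11.5 (adjusted p = 0.002397, limma). Here "at least" means that Mmp3 was not well above background on either E11.5 array, and that each such array was given the lowest signal that was well above background on it. The same rule is used for every such bound below. Such a bound allows only for dim signals and leaves out the spread between arrays, so it is not a confidence limit. For Mmp3 the 95% interval of the fitted change at 19 days against E11.5 ran from 8.134 to 14.69 (log2, limma). With slide as a block the change was 16.68 (adjusted p = 0.001097), and over 14 alternatives it lay between 7.11 and 16.68 (adjusted p 0.0001005 to 0.02084). Of the 16.68 with slide as a block, 5.27 is the difference between the 8-day arrays. Between 19 and 8 days Mmp3 was 259.9-fold higher (8.02 ± 1.41, adjusted p = 0.01536), with 1 of 2 arrays of 8-day culture above background. That call was lost without either 19-day array (8.14 and 7.91).

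Mmp10 (stromelysin 2), a close relative, was the only member that rose at both culture times. It read -3.89 and -6.05 at E11.5, 2.03 and -0.63 after 8 days, and 1.59 and 3.46 after 19 days. All 4 culture arrays were above both E11.5 arrays, of which 1 was well above background. The change was 5.67 ± 1.08 at 8 days (50.86-fold, adjusted p = 0.03275) and 7.495 ± 1.08 at 19 days (180.4-fold, adjusted p = 0.004332). The 19-day and 8-day arrays overlapped (adjusted p = 0.3817). The 8-day call was lost without 8-day replicate 1 (4.34) and without E11.5 replicate 2 (4.59). With slide as a block the change was 10.15 at 19 days and 6.99 at 8 days, and both passed.

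Mmp13 (collagenase 3), which cuts fibrillar collagen, was not well above background on any fresh array. It read 1.45 and -3.83 after 8 days and 0.69 and 2.67 after 19 days, against -6.35 and -6.34 at E11.5. The 8-day replicates differed by 5.29, more than for any other member. Mmp13 was at least 70.87-fold higher at 19 days than at E11.5 (8.03 ± 1.56, adjusted p = 0.01334), and the 8-day change of 5.16 ± 1.56 did not pass (adjusted p = 0.1161). The 19-day call was lost without 19-day replicate 2 (7.04, adjusted p = 0.06804, range over alternatives 0.002515 to 0.06804), and with slide as a block the change was 13.32. On slide 1 alone, which holds only 8-day replicate 1, Mmp13 and Mmp3 were higher at 8 days by 7.80 and 6.03 (adjusted p = 0.02569 and 0.01779), beside Mmp9 and Mmp10, so that 4 members passed there.

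Mmp12 (macrophage elastase) was above background on the 19-day arrays alone, at 2.76 and 0.19. It read -5.53 and -4.51 after 8 days and -5.94 and -6.24 at E11.5, none of them well above background. It was at least 61.37-fold higher at 19 days than at E11.5 (7.56 ± 0.82, adjusted p = 0.00145) and at least 54.12-fold higher than at 8 days (6.49 ± 0.82, adjusted p = 0.005307). The first change was 6.55 with slide as a block and did not pass (adjusted p = 0.05539, range over alternatives 0.001139 to 0.05539). A second Mmp12 probe was not well above background on any array, so this rise rests on 1 probe. Of 10 macrophage and leukocyte markers, 0 were higher and 2 lower in 19-day culture than at E11.5 (0 higher and 2 lower unadjusted), and their mean level was -1.37 and -0.99 in 19-day culture, against -0.49 and -1.18 at E11.5. The 2 that fell were Tyrobp, an adaptor of myeloid receptors (-4.64, adjusted p = 0.005051), and the integrin gene Itgam (-0.74, adjusted p = 0.04279). Another 5 had changes above 0 that did not pass, the largest of them 1.77 for Cx3cr1, a chemokine receptor of microglia and monocytes. Cx3cr1 read -3.96 and -1.06 in 19-day culture, both above background, against -6.09 and -5.99 in 8-day culture, neither above background, and -2.42 and -6.13 at E11.5, and its change from 8 to 19 days did not pass (3.53, adjusted p = 0.1592). Some markers of this list varied little. Itgam lay between 7.52 and 8.626 on all arrays, Csf1r between 3.779 and 4.195, and Ptprc between -1.616 and -0.77. Each was lower on both arrays of the mixed P0 non-progenitors than on both E11.5 arrays, while Tyrobp, Fcer1g, Lyz2 and Cx3cr1 were higher there. Whether the probes of Itgam, Csf1r and Ptprc follow leukocyte content was not tested, and the counts and mean contain them. The part of the macrophage and leukocyte markers in the Mmp12 change was not tested.

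Mmp8 (neutrophil collagenase) read -0.12 and -0.33 in 19-day culture, against -4.66 and -5.41 in 8-day culture and -4.71 and -3.50 at E11.5. The 19-day arrays stood apart from the other 4. Mmp8 was 14.74-fold higher than at E11.5 (3.88 ± 0.55, adjusted p = 0.004003, 1 of 2 arrays above background at E11.5) and at least 17.44-fold higher than at 8 days (4.81 ± 0.55, adjusted p = 0.004232). Of 6 neutrophil markers, 0 rose or fell at 19 days (0 unadjusted). S100a8, S100a9 and Ltf were above background in P0 non-progenitors alone and Camp on all 10 arrays. Mpo and Elane, which encode granule enzymes, were above background on both 19-day arrays and on neither E11.5 array. Mpo read -4.01 and -3.64 at 19 days, against -4.23 and -4.21 at E11.5 (change 0.40, adjusted p = 0.5591), and Elane read -3.58 and -3.67, against -4.55 and -4.37 at E11.5 (change 0.83, adjusted p = 0.1897). The part of these markers in the Mmp8 change was not tested.

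Mmp1b, a collagenase of the cluster, was above background on the 19-day arrays alone. It read 0.94 and -2.67 there, against -6.16 and -6.39 in 8-day culture and -4.33 and -4.67 at E11.5. Its replicates were 3.60 apart, and it was at least 11.18-fold higher than at 8 days (5.41 ± 1.03, adjusted p = 0.0208), a call lost with slide as a block (5.53) and without either 8-day array (5.53 and 5.30). Against E11.5 its change of 3.64 just missed the threshold (adjusted p = 0.0509). Its relative Mmp1a was not tested. Mmp1a read -5.61 and -1.69 in 19-day culture, against -6.14 and -6.36 in 8-day culture and -5.47 and -2.74 at E11.5, with 1 array above background at each of 19 days and E11.5. Mmp27, a less studied stromelysin-like enzyme, did not pass on its tested probe at 19 days (0.56, adjusted p = 0.4974). Its other probe read -0.87 and -2.15 in 19-day culture, against -5.82 and -6.16 at E11.5, so the probes of Mmp27 disagree. Mmp7 (matrilysin) was above background only in 19-day replicate 1, at -3.68, and Mmp20, an enamel protease, on no array.

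The gelatinases, which digest denatured collagen and basement membrane collagen, passed at different times, Mmp9 at 8 days and Mmp2 at 19 days. Mmp9 (gelatinase B) read -6.07 and -5.66 at E11.5, 3.55 and -0.96 after 8 days, and -3.20 and -4.98 after 19 days. It was seen in 8-day culture and on 1 array of 19-day culture. Mmp9 was at least 54.25-fold higher at 8 days than at E11.5 (7.16 ± 1.32, adjusted p = 0.03011), with 8-day replicate 1 far above replicate 2. The 8-day change was lost without replicate 1 (4.91) and without either E11.5 array, and its adjusted p lay between 0.008638 and 0.1859 over 14 alternatives. The 19-day change of 1.78 did not pass (adjusted p = 0.4242), and 19 days against 8 days gave -5.39 (adjusted p = 0.05089). With slide as a block its 19-day change was 6.29 (adjusted p = 0.03486), of which 4.51 is the difference between the 8-day arrays.

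Mmp2 was above background on every array. It read -0.23 and 0.87 at E11.5, 0.71 and 0.06 after 8 days, and 3.72 and 3.80 after 19 days. The 8-day and E11.5 levels overlapped and both 19-day arrays lay above all others, P0 included. Mmp2 was 10.86-fold higher at 19 days than at E11.5 (3.44 ± 0.40, adjusted p = 0.001859) and 10.37-fold higher than at 8 days (3.37 ± 0.40, adjusted p = 0.004473). The 19-day change against E11.5 passed under all 15 alternatives that were run.

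Other Mmp genes of varied function rose as well. Mmp19, first known from human synovium, read -0.63 and -0.56 in 19-day culture, against -6.23 and -3.74 in 8-day culture and -6.37 and -6.34 at E11.5. It was at least 14.61-fold higher than at E11.5 (5.75 ± 0.74, adjusted p = 0.00292) and 20.89-fold higher than at 8 days (4.38 ± 0.74, adjusted p = 0.01395), where only replicate 2 was above background. The second call was lost without either 19-day array (4.42 and 4.35). Its change from E11.5 was 3.27 with slide as a block (adjusted p = 0.04407, range 0.0007434 to 0.04407). Mmp23, a membrane-bound MMP without the usual hemopexin domain, read 1.52 and 1.14 in 19-day culture, against -2.11 and -0.73 in 8-day culture and -1.78 and -3.71 at E11.5. It was 16.8-fold higher than at E11.5 (4.07 ± 0.69, adjusted p = 0.008197), a call lost with slide as a block (2.70, adjusted p = 0.2192, the highest over its alternatives).

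Of the 5 membrane-type MMPs tested, 0 were higher or lower at 19 days than at E11.5 (limma). At an unadjusted p under 0.05, 0 were higher and 1 was lower, Mmp16 with -3.02. These enzymes are held at the cell surface, as is Mmp23, which was not counted in this class and was higher. Mmp14, the activator of pro-MMP2, stayed between -1.71 and 0.15 on all 10 arrays. Mmp16 read -5.57 and -2.85 in 19-day culture, against 0.40 and -1.02 in 8-day culture and -0.51 and -1.88 at E11.5. It was 14.9-fold lower at 19 than at 8 days (-3.90 ± 0.95, adjusted p = 0.04983), with 1 of 2 arrays of 19-day culture above background. This call was lost under 10 of 14 alternatives, including slide as a block (-3.19, adjusted p = 0.181, range 0.01927 to 0.3645) and the fits without 8-day replicate 1 (-3.19), 8-day replicate 2 (-4.61) or 19-day replicate 1 (-2.54).

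**Figure D3:**
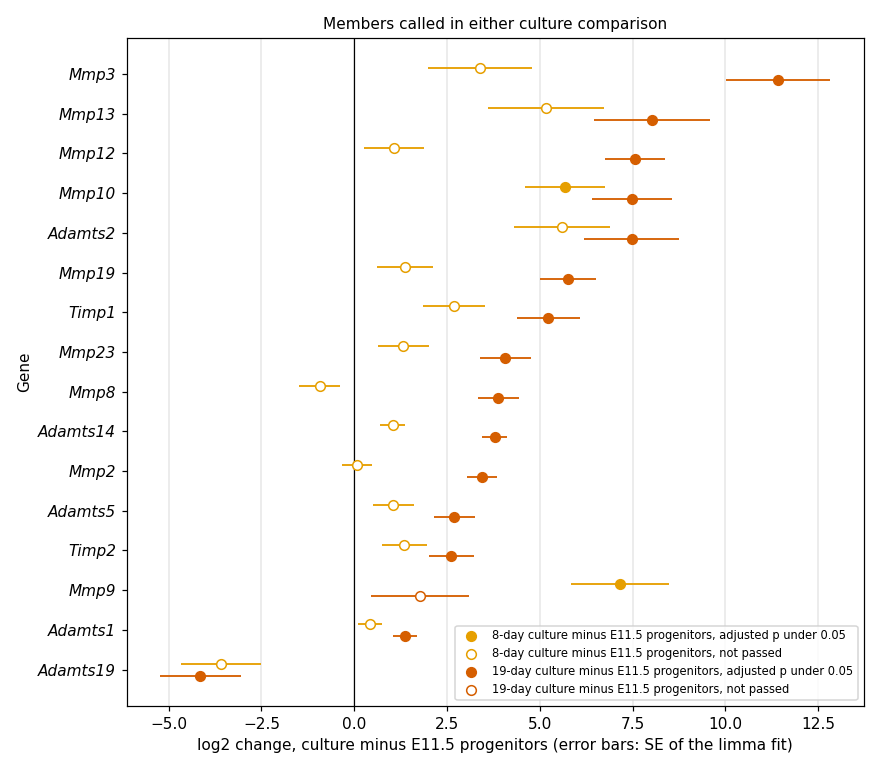
Change from E11.5 progenitors (x axis, log2) in 8-day and 19-day culture for the 16 members that passed the test in either comparison (y axis). Error bars are standard errors of the limma fit and filled points passed at an adjusted p under 0.05. Mmp10 alone is filled at both times, Mmp9 only at 8 days, and Adamts19 is the only filled point below 0.

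Among the inhibitors, Timp1 and Timp2 were higher in 19-day culture than at E11.5, while Timp3 and Timp4 did not pass in any comparison. Timp1, a secreted inhibitor of most soluble MMPs, read -1.90 and -3.25 at E11.5, 0.69 and -0.48 after 8 days, and 3.61 and 1.71 after 19 days. The 3 groups did not overlap, with 8-day culture between the others. Timp1 was 37.58-fold higher at 19 days than at E11.5 (5.23 ± 0.84, adjusted p = 0.006403), and the 8-day change of 2.68 ± 0.84 did not pass (adjusted p = 0.1262). The 19-day call was lost with slide as a block, although the change was 6.40 (adjusted p = 0.06034, range 0.0007498 to 0.06086).

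Timp2, which both inhibits MMP2 and helps MMP14 to activate it, read 2.50 and 0.60 at E11.5, 3.53 and 2.28 after 8 days, and 4.11 and 4.22 after 19 days. Both 19-day arrays were above every other array. It was 6.12-fold higher at 19 days than at E11.5 (2.61 ± 0.61, adjusted p = 0.02627), and its second probe changed by 3.18. The call was lost under 5 of 15 alternatives, among them slide as a block (3.87, adjusted p = 0.07487, range 0.002635 to 0.1243) and the fits without E11.5 replicate 2 (1.66), 19-day replicate 1 (2.67) or 19-day replicate 2 (2.56).

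Timp3, which is bound to the matrix, read -0.82 and -3.07 at E11.5, -3.81 and -1.79 after 8 days, and 1.00 and -0.25 after 19 days. In P0 progenitors it read -0.472 and 1.196, against 2.70 and 2.40 in P0 non-progenitors. Its 19-day level was above the others of the time series, with a change of 2.32 from E11.5 that did not pass (adjusted p = 0.1594). The difference of -2.19 between P0 progenitors and P0 non-progenitors did not pass either (95% interval -4.47 to 0.10, adjusted p = 0.253). Timp4 stayed between -0.85 and -0.10 on all arrays, and its 19-day change was -0.001 (adjusted p = 0.9989).

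**Figure D4:**
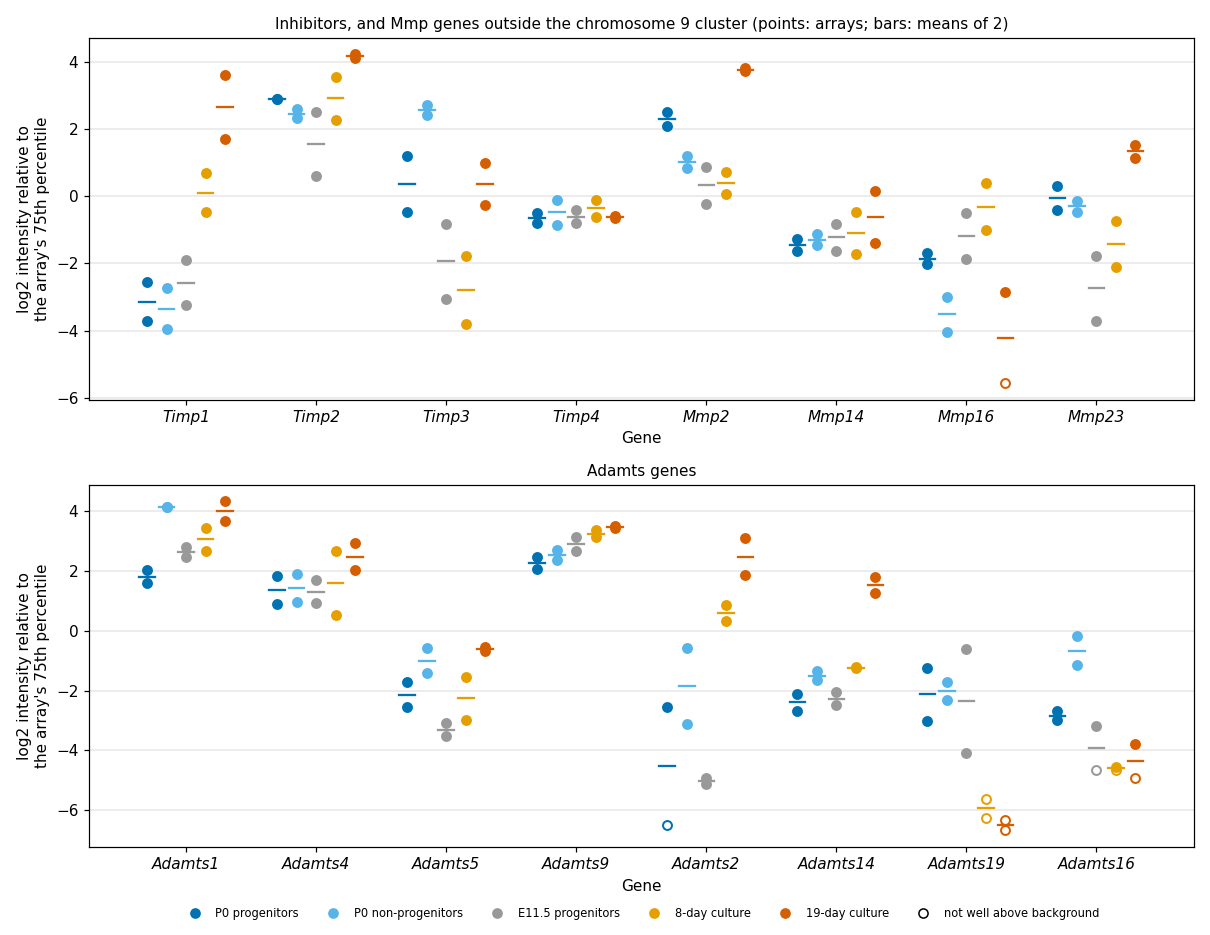
Levels of the 4 Timp genes with 4 Mmp genes outside the chromosome 9 cluster (upper panel) and of 8 Adamts genes (lower panel) on each array. The y axes give log2 intensity relative to the array's 75th percentile and are not comparable between genes. Points are arrays, bars are means of 2, and open points were not well above background. Timp1 climbs over the 3 stages from E11.5 to 19 days, while Timp4 lies between -0.85 and -0.10 throughout.

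Of the 18 Adamts genes tested, 4 were higher and 1 lower in 19-day culture than at E11.5. That is 27.8%, beside 16.8% of all genes (7.21% higher, 9.55% lower). The procollagen N-proteinases, which trim the amino-terminal propeptides of fibrillar procollagens, gave 2 of these. Adamts14 read -2.48 and -2.06 at E11.5, -1.21 and -1.26 after 8 days, and 1.24 and 1.78 after 19 days. The 3 groups did not overlap, and it was 13.74-fold higher at 19 days than at E11.5 (3.78 ± 0.34, adjusted p = 0.0007468) and 6.704-fold higher than at 8 days (2.75 ± 0.34, adjusted p = 0.005165). The change from E11.5 passed under all 15 alternatives that were run.

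Adamts2, the main procollagen I N-proteinase of skin, read -5.12 and -4.91 at E11.5, 0.84 and 0.31 after 8 days, and 3.07 and 1.84 after 19 days. On its tested probe both E11.5 arrays were below background, while the other probe was above background there, so the size of its change is uncertain. The tested probe changed by 7.47 ± 1.28 (177.9-fold, adjusted p = 0.008365) and the other by 4.81. At 8 days the tested probe changed by 5.60 and just missed the threshold (adjusted p = 0.05409). With slide as a block the 19-day change was 8.01 and did not pass (adjusted p = 0.1144, range 0.001996 to 0.1144), and neither did the change of 6.86 without 19-day replicate 1. Adamts3, the third of this class, was above background on both 19-day arrays but not at E11.5, and its change of 2.00 did not pass (adjusted p = 0.2898).

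The proteoglycanases cut versican and aggrecan. Adamts5 read -0.67 and -0.56 in 19-day culture, against -1.55 and -2.97 in 8-day culture and -3.52 and -3.10 at E11.5. It was 6.479-fold higher at 19 days than at E11.5 (2.70 ± 0.56, adjusted p = 0.01675), and its second probe changed by 3.501. The call was lost without E11.5 replicate 1 (2.49), 19-day replicate 1 (2.75) or 19-day replicate 2 (2.64). Adamts1 read 3.65 and 4.30 at 19 days, against 2.78 and 2.45 at E11.5, with the 8-day arrays at 2.66 and 3.42 between and across them. It was 2.569-fold higher (1.36 ± 0.33, adjusted p = 0.02876), a call lost with slide as a block (0.60, adjusted p = 0.5418, the highest over its alternatives). It was also lost without E11.5 replicate 1 (1.53), E11.5 replicate 2 (1.197) or 19-day replicate 2 (1.03). Adamts4 read 2.91 and 2.01 in 19-day culture, against 1.67 and 0.91 at E11.5, and did not pass on its tested probe (1.18, adjusted p = 0.3381), while its other probe changed by 3.43. Adamts8, Adamts9 and Adamts15 did not pass in any comparison.

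Adamts19, an ADAMTS of little known substrate, was the only member that fell from E11.5. It read -6.66 and -6.31 in 19-day culture and -6.23 and -5.63 in 8-day culture, none above background, against -4.08 and -0.60 at E11.5. The E11.5 replicates were 3.48 apart. Adamts19 was at least 5.304-fold lower at 19 days (-4.14 ± 1.09, adjusted p = 0.03941), a call lost under 9 of 14 alternatives, among them slide as a block (-4.75) and the fits without E11.5 replicate 2 (-2.41), 19-day replicate 1 (-3.97) or 19-day replicate 2 (-4.32), with adjusted p from 0.007462 to 0.2329.

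Among the marker lists, those of nephron progenitors and of stroma and fibroblasts had the most calls between 19-day culture and E11.5. Of 10 endothelial, 10 ureteric bud and collecting duct and 6 neutrophil markers, 0 passed (0 unadjusted). Of 6 podocyte markers 1 was higher, and of 8 tubule markers 1 was lower. Of 4 erythroid markers 2 were lower, as was 1 of 5 skeletal muscle markers. Of all genes, 7.21% were higher and 9.55% lower. Of 12 nephron progenitor markers, 0 were higher and 10 lower in 19-day culture than at E11.5, and their mean level was -0.96 and 0.27, against 3.42 and 3.79. Of 12 renal stroma and fibroblast markers, 8 were higher and 1 (Foxd1) lower. Their mean level was -2.66 and -2.72 at E11.5, -1.09 and -1.28 after 8 days, 1.26 and 1.07 after 19 days, and 1.39 and 1.35 in P0 non-progenitors. Col1a1, the main fibrillar collagen chain, read 6.37 and 5.64 in 19-day culture, against -1.002 and -1.513 at E11.5. The part of such cells in the protease changes was not tested, and in bulk samples more cells of a type and more RNA per cell cannot be told apart.

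Genes that act with the members were followed as lists. Their counts stand beside 16.8% of all genes called at 19 days against E11.5 (7.21% higher, 9.55% lower). This share was 4.78% at 8 days against E11.5 and 8.04% between 19 and 8 days. The plasminogen system, whose product plasmin activates several pro-MMPs, had 6 of 8 tested genes higher in 19-day culture than at E11.5 and 0 lower. Plau (urokinase) read 3.91 and 5.01 in 19-day culture, against -0.54 and 0.03 in 8-day culture, and was not well above background at E11.5, at -6.28 on both arrays. Plau was at least 488-fold higher at 19 days (adjusted p = 0.000212) and at least 18.53-fold higher at 8 days (adjusted p = 0.005599), and it was 26.33-fold higher at 19 than at 8 days (adjusted p = 0.006903). Serpine2 (protease nexin 1), an inhibitor of urokinase and thrombin, rose beside it, by 48.27-fold at 19 days (adjusted p = 0.000553) and 6.153-fold at 8 days (adjusted p = 0.02698). Plat (tissue plasminogen activator) was 9.507-fold higher at 19 than at 8 days (adjusted p = 0.0168), 1 of 4 genes of the list that rose between them. Leaving out 1 array at a time gave 3 to 4 genes of this list in 19-day culture against E11.5, and 3 to 5 of the cathepsins and cystatins described next.

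In other protease lists, part of the genes passed. Of 14 cathepsins and cystatins, 7 were higher and 0 lower at 19 days than at E11.5, led by the lysosomal proteases Ctsb (7.711-fold, adjusted p = 0.00087) and Ctsc. The change of Ctsc was 51.7-fold (adjusted p = 0.0218), but its E11.5 arrays read -1.57 and -6.27, and without E11.5 replicate 2 it was 10.13-fold (adjusted p = 0.00638, range without each array in turn 0.0008085 to 0.09204). Ctsl and Ctsb also rose at 8 days, by 2.901-fold and 2.586-fold (adjusted p = 0.02318 and 0.03995). Of 19 other extracellular or membrane metalloproteases, 6 were higher and 1 lower at 19 days. The sheddase Adam15 was 51.37-fold higher (adjusted p = 0.000754) and Adam9 17.2-fold higher (adjusted p = 0.001609), while Adam10, which processes Notch receptors, was 1.601-fold lower (adjusted p = 0.01177). Of 10 other matrix-degrading enzymes, Htra1, a secreted serine protease, was at least 132.4-fold higher (adjusted p = 0.000442) and the heparanase gene Hpse at least 8.98-fold higher (adjusted p = 0.002612). Adam15, Adam19 and Htra1 had passed at 8 days already, 21.12-fold, 11.06-fold and at least 9.04-fold higher than at E11.5 (adjusted p = 0.007852, 0.02883 and 0.02459). From 8 to 19 days, Ctsb (2.982-fold, adjusted p = 0.01631), Cst3, which encodes the inhibitor cystatin C (2.477-fold, adjusted p = 0.0367), Adam9 (4.571-fold, adjusted p = 0.02914), Htra1 (14.65-fold, adjusted p = 0.007399) and Hpse (6.293-fold, adjusted p = 0.04786, 1 of 2 arrays above background at 8 days) were higher, and Adam10 was 1.531-fold lower (adjusted p = 0.02882).

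MMP regulators at the cell surface changed in both directions. Of 11 tested, 5 were higher and 1 lower at 19 days than at E11.5. Lrp1, the endocytic receptor that clears MMPs and TIMP complexes, was 35.81-fold higher (adjusted p = 0.001689), and the tetraspanin Cd9 was 6.844-fold higher (adjusted p = 0.007004). Spock2 (testican 2), a matrix proteoglycan, was 127.1-fold lower (adjusted p = 0.001414). At 8 days Cd9 and Pcsk5 had passed, 4.589-fold and at least 2.78-fold higher than at E11.5 (adjusted p = 0.04093 and 0.02689). From 8 to 19 days Lrp1 was 6.425-fold higher and Spock2 16.63-fold lower (adjusted p = 0.0334 and 0.01896). Of 7 ADAMTS-like genes with papilin, which resemble ADAMTS proteins but lack the protease domain, 0 passed in any of the 5 comparisons (at most 1 higher and 1 lower unadjusted in each). Of 5 ADAMTS substrates tested, 0 passed at 19 days against E11.5 (1 higher and 1 lower unadjusted), and Vcan (versican) was 2.446-fold lower at 19 than at 8 days (adjusted p = 0.04606). Many calls over these lists were lost without 1 array. Without each array in turn, 16 of 28 calls at 19 days against E11.5 held every time (Ctsc, Plat, Adam10, Bmp1 and 8 others did not), 2 of 9 at 8 days against E11.5 (Adam15 and Plau) and 1 of 14 between 19 and 8 days (Plau).

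Between P0 progenitors and P0 non-progenitors, 0 of 40 members were higher and 3 lower (1 higher and 5 lower unadjusted). That is 7.5% of the members tested, beside 8.35% of all genes (4.21% higher, 4.13% lower). Mmp8 was not well above background in P0 progenitors, at -4.85 and -5.13, against -1.19 and -2.15 in P0 non-progenitors. It was at least 6.422-fold lower (-3.32 ± 0.55, adjusted p = 0.01251). Mmp17, a membrane-type MMP held by a lipid anchor, read -1.47 and -2.23 in P0 progenitors, against 1.17 and 1.21 in P0 non-progenitors, and was 8.219-fold lower (-3.04 ± 0.60, adjusted p = 0.02308). Adamts1 read 2.03 and 1.57 in P0 progenitors, against 4.13 and 4.11 in P0 non-progenitors, and was 5.003-fold lower (-2.32 ± 0.33, adjusted p = 0.007145). None of the 3 overlapped between the groups. With 2 arrays a group this was also so for members that did not pass, such as Mmp16 and Timp3.

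These P0 calls depended on single arrays. Mmp17 was lost when any 1 of the 4 arrays was left out (changes from -3.42 to -2.66), Mmp8 in 3 of the 4 cases (-3.80 to -2.84), and Adamts1 without P0 progenitor replicate 2 (adjusted p = 0.05896, range over alternatives 0.004344 to 0.05896). Markers of other cells were lower in P0 progenitors too, beside 4.13% of all genes. These were 3 of 6 neutrophil, 4 of 10 macrophage and leukocyte, 8 of 12 stroma, 8 of 10 endothelial and 7 of 8 tubule markers. So were 4 of 4 erythroid, 5 of 6 podocyte and 7 of 10 ureteric bud and collecting duct markers. Of 5 skeletal muscle markers 0 passed, and of 12 nephron progenitor markers 6 were higher and 0 lower. The mean level of the neutrophil list was -5.11 and -4.74 in P0 progenitors, against -1.44 and -1.18 in P0 non-progenitors. The part of such cells in the lower Mmp8, Mmp17 and Adamts1 was not tested.

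Adamts16, an ADAMTS linked to blood pressure in rats, missed the threshold on its tested probe. It read -2.69 and -2.98 in P0 progenitors, against -1.16 and -0.19 in P0 non-progenitors (-2.16, adjusted p = 0.08239). Its other probe read -0.98 and -1.18 in P0 progenitors, against 1.91 and 2.88 in P0 non-progenitors, and -6.53 and -6.50 at E11.5. With the mean of a gene's probes, Adamts16 and Adamts5 were called lower too, so that 5 members passed.

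Among the lists, the plasminogen genes had 1 higher and 3 lower of 8 in P0 progenitors, set against P0 non-progenitors. Of all genes, 4.21% were higher and 4.13% lower there. Plau read -2.20 and -0.16 in P0 progenitors, against 5.46 and 5.38 in P0 non-progenitors, and was 96.99-fold lower (adjusted p = 0.002079). The inhibitor Serpinf2 (antiplasmin) was 6.978-fold lower (adjusted p = 0.04721) and Serpinf1 3.283-fold higher (adjusted p = 0.0183). Of 14 cathepsins and cystatins, 1 was higher and 3 were lower, with Ctsf 3.189-fold higher (adjusted p = 0.01634), Ctss 113-fold lower (adjusted p = 0.002302, 1 of 2 arrays above background in P0 progenitors) and Ctsh 9.118-fold lower (adjusted p = 0.01267). Of 19 other metalloproteases, 4 were lower, led by the brush border meprins Mep1b (123.3-fold, adjusted p = 0.0103, 1 of 2 arrays above background in P0 progenitors) and Mep1a (at least 47.05-fold, adjusted p = 0.001289). Of 10 other matrix-degrading enzymes, 2 were lower, which were Dpp4, a membrane peptidase of the proximal tubule (39.59-fold, adjusted p = 0.001678), and Htra1 (at least 6.126-fold, adjusted p = 0.01042). Vcan was 8.798-fold higher in P0 progenitors (adjusted p = 0.002057) and Spock2 22.06-fold higher (adjusted p = 0.01358), each the only gene of its list that passed. Without each array in turn, 5 of the 16 list calls between the P0 groups held every time (Ctss, Dpp4, Mep1a, Plau and Vcan).

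Between P0 and E11.5 progenitors, 1 of 40 members was higher and 0 lower (4 higher and 2 lower unadjusted), 2.5% beside 3.93% of all genes (2.02% higher, 1.91% lower). Mmp2 read 2.07 and 2.49 at P0, against -0.23 and 0.87 at E11.5. It was 3.897-fold higher (1.96 ± 0.40, adjusted p = 0.04195), a call lost under 8 of 16 alternatives, among them the fits without E11.5 replicate 1 (1.41), P0 progenitor replicate 1 (2.17) or P0 progenitor replicate 2 (1.75), with adjusted p from 0.02375 to 0.2201. Mmp23 read 0.31 and -0.40 at P0, against -1.78 and -3.71 at E11.5, and its change of 2.70 did not pass (adjusted p = 0.08378). Adamts16 changed by 1.087 on its tested probe and did not pass (adjusted p = 0.4017, limma), while its other probe changed by 5.435. With the mean of a gene's probes Adamts16 was called too, so that 2 members passed. Plau was at least 9.74-fold higher at P0 (adjusted p = 0.01034), the only gene of 8 in its list that rose. Of the MMP regulators, 3 of 11 rose, led by Cd9 (5.27-fold, adjusted p = 0.03439) and the proprotein convertase Pcsk5 (at least 4.063-fold, adjusted p = 0.01622). Ctsl (4.232-fold, adjusted p = 0.009318) and Ctsf (3.092-fold, adjusted p = 0.03069) rose among the 14 cathepsins and cystatins, Adam15 (13.21-fold, adjusted p = 0.01276) and Ece1 (4.397-fold, adjusted p = 0.01581) among the 19 other metalloproteases, and Dpp4 (at least 4.567-fold, adjusted p = 0.03168) and Hpse (at least 2.553-fold, adjusted p = 0.03864) among the 10 other enzymes. Of 10 list calls, Plau alone held without each array in turn.

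Of the 40 tested members, 21 passed in none of the 5 comparisons, and 15 of these were above background on every array. On the tested, brightest probe the narrowest were Mmp28 (epilysin), which lay between -1.79 and -1.11, Adamts8 between -1.96 and -1.24, Timp4 between -0.85 and -0.10, and Adamts9, the versican-cleaving relative of the worm protease GON-1, between 2.05 and 3.49. Wider were Mmp11 (stromelysin 3) between -0.81 and 2.09, Mmp14 between -1.71 and 0.15, Mmp24 between -2.38 and 0.11, and Mmp27 between -3.65 and -1.68. Among the Adamts genes, Adamts4 lay between 0.53 and 2.91, Adamts10 between -3.64 and -1.85, Adamts12 between -0.57 and 3.14, Adamts13, the von Willebrand factor protease, between -3.64 and -2.09, Adamts15 between -2.83 and 0.01, and Adamts17 between -2.18 and 1.17. Timp3 lay between -3.81 and 2.70. Second probes disagreed for some of these genes. The second Adamts9 probe read -2.54 and -3.05 in 8-day culture and -3.79 and -2.48 in 19-day culture, against -5.82 and -5.01 at E11.5, and the second Adamts8 probe, above background on 3 arrays, ran from -6.69 to -1.88. The other 6 (Adamts3, Adamts6, Adamts7, Adamts16, Adamts18 and Mmp15) were below background on some arrays. A change that did not pass does not show that a level stayed the same, since 2 arrays a group left wide intervals, such as -0.84 to 2.04 (95%) for the change of Mmp14 between 19-day culture and E11.5.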

How the data were processed

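RNA of sorted or cultured cells was amplified, labelled with Cy3 and hybridised to Agilent single-colour mouse arrays, 2 for each of 5 groups taken from the labels. The deposited values are spot intensities from Agilent Feature Extraction 11.5.1.1, background-corrected within each array, per the file headers. The log2 of each spot was taken with no pseudocount, and each array's 75th percentile was subtracted. Spots of a probe were then averaged, leaving out spots flagged as outliers. A gene was represented by its brightest probe and tested if in some group each array had a probe well above background. Symbols were updated through RefSeq (28026 probes by accession, 3418 by a current symbol, 295 by a synonym, and 23942 left with the name in the file). limma 3.58.1 in R 4.3.3, with the R package data.table in version 1.17.8, fitted all 10 arrays with an intensity trend (5 residual and 2.49 prior degrees of freedom), Benjamini-Hochberg adjustment ran over all 26312 genes, and the code was tested on simulated data. Python 3.11.15, pandas 2.3.3 and matplotlib 3.10.9 served for promoters and figures. The file of P0 progenitor replicate 2 had been saved with rounded values and 29 names turned into dates, so annotation came from another array. The file names of the P0 groups carry another stage, and the labels were followed. Each called member and each TIMP is named with values, members not called by their range, and of each list its counts and up to 2 largest rises and falls. Some other values are given beside these. Members, lists and tests were chosen with earlier results of these data known. Alternatives were quantile normalization, normexp (offset 50), other filters on dim genes, no intensity trend, averaging the probes of a gene, blocks for replicate or slide, single slides, compared groups alone, a minimum change of 1, and leaving out each array. Leaving out both 8-day arrays was chosen after seeing the data. The number of arrays limits the precision.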

Additional observations from a re-analysis of the deposited data

Results flagged for a closer look

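For 8 members the change from E11.5 progenitors differed between 19 and 8 days of culture (limma, Benjamini-Hochberg adjustment over all genes). Both changes use the same E11.5 arrays, which cancel. This is therefore the comparison of 19 with 8 days given above, and not a second test. The difference, 19-day minus 8-day change on the log2 scale, was 8.02 for Mmp3 (adjusted p = 0.01536), 6.49 for Mmp12 (adjusted p = 0.005307), 5.41 for Mmp1b (adjusted p = 0.0208), 4.81 for Mmp8 (adjusted p = 0.004232) and 4.38 for Mmp19 (adjusted p = 0.01395). It was 3.37 for Mmp2 (adjusted p = 0.004473), 2.75 for Adamts14 (adjusted p = 0.005165) and -3.90 for Mmp16 (adjusted p = 0.04983). Both 19-day arrays lay on 1 side of both 8-day arrays for each of the 8, as they did for members that did not pass, such as Timp1 and Timp2. On slide 2 alone none passed (0 genes of 26312; of the 40 members, 16 were higher and 1 lower at an unadjusted p under 0.05). Mmp3, Mmp12, Mmp1b and Mmp19 were tested only through the 19-day arrays, on which they were high. With slide as a block, Mmp1b (5.53, adjusted p = 0.06872, range over alternatives 0.003358 to 0.2877) and Mmp16 (-3.19, adjusted p = 0.181, range over alternatives 0.01927 to 0.3645) did not pass.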

How the results depend on the processing

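No call reversed its direction under any alternative that was run, and the cause of a lost call was not tested. For P0 progenitors against P0 non-progenitors, the mean of probes gave 5 members (3 in the report) and leaving out 1 array gave 0 to 2. Against E11.5 progenitors, P0 progenitors had 1 member in the report, 2 with the mean of probes, and 0 each without a filter, without an intensity trend, with the replicate block, with compared groups alone and on slide 1 alone, and leaving out 1 array gave 0 to 2. For 8-day culture against E11.5 the report's 2 became 1 with normexp, 0 each with genes above background on all arrays, without a trend and with compared groups alone, 4 each with slide as a block and on slide 1 alone, and 0 to 4 without 1 array. For 19-day culture against E11.5, 15 became 7 with genes above background on all arrays (only 23 members tested), 9 with slide as a block, and 11 to 16 without 1 array, and the share of all genes called fell to 5.64% with slide as a block and 4.9% with compared groups alone, against 16.8%. Between 19 and 8 days, 8 became 3 with genes above background on all arrays, 0 each with compared groups alone and on slide 2 alone, and 5 to 7 without 1 array. Leaving out both 8-day arrays gave 14 members for 19-day culture against E11.5, with Adamts19 lost. Same-numbered arrays shared only a number (correlations of deviations from -0.013 to 0.028), and the replicate block gave 3 members at 8 days, 16 at 19 days and 9 between them. Quantile normalization turned the share of higher genes among all called genes to 34.9% from 50.5% (P0 progenitors against P0 non-progenitors), to 65.3% from 51.4% (P0 against E11.5 progenitors) and to 45.3% from 33.1% (19 against 8 days). Normexp shifted the median of all genes at 19 days to -0.167 from 0.006. Arrays of 2 per group and dim probes limit what could be seen.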
